A study of Mus musculus with 13 samples.

Results

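The matrix metalloproteinases (MMPs), the ADAMTS proteases and their tissue inhibitors (TIMPs) were followed through 13 mouse aortas. All protein-coding genes of the deposited count table whose symbols are those of an MMP, an ADAMTS protease or a TIMP were taken, which gave 45 of its 54532 genes (22046 protein-coding): 22 MMP, 19 ADAMTS and 4 TIMP genes. Of these, 36 had enough counts to be compared between groups: 17 MMP, 15 ADAMTS and all 4 TIMP genes. The mice lacked apolipoprotein E (ApoE-/-), which makes them prone to atherosclerosis, and were infused with angiotensin II (AngII) from a subcutaneous pump, at 1000 ng/kg/min for at most 28 days from 10 weeks of age, a model of abdominal aortic aneurysm. Each had 5 tail vein injections of adenovirus. In 6 mice (Ad-sham) the virus carried the empty vector, and in 7 mice (Ad-FAM3A) it carried mouse Fam3a, the gene of a secreted cytokine-like protein. The methods name both an EF1A-driven vector and a CMV vector for it, each with a promoter active in many cell types, and which of them these mice received cannot be told from the sources used here. RNA of each aorta was sequenced as 1 library, so an aorta is the replicate. Every mouse had received AngII and virus, and no aorta without them is among the 13, so the levels below are those of infused aortas. The methods describe male or female mice, and the sex of these 13 is not given in the sources used here.

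MMPs are zinc-dependent endopeptidases that cells make as inactive precursors and that cleave collagens, elastin and other matrix proteins once their propeptide is removed. ADAMTS proteases are secreted relatives with thrombospondin repeats, which cut proteoglycans such as versican and aggrecan or trim procollagens. TIMPs block the active site of MMPs, and Timp3 also blocks several ADAMTS proteases; in the aneurysmal aorta the loss of elastic fibres and the turnover of collagen are ascribed to this balance of protease and inhibitor.

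Counts on genes summed to 14481179 to 19797407 per aorta. A count of 3, the most that a count of 0 allows, stood for 0.140 to 0.221 CPM (counts scaled to library size, with TMM factors), which covers counting error only. Fam3a itself was at 24.4 ± 4.27 CPM in Ad-sham (SD, n = 6) and 23.97 ± 4.64 CPM in Ad-FAM3A aortas (n = 7), so these libraries show no excess of the delivered gene, and every direction below refers to the labels of the groups. The markers of the aortic wall were present in every library, with the summed level of 9 smooth muscle genes at 3104 to 13268 CPM in Ad-sham and 2379 to 19125 CPM in Ad-FAM3A aortas. Some libraries stood apart: Ad-FAM3A6 and Ad-FAM3A7 had sums of 552 and 192 CPM over 6 lymphoid markers, where no other aorta exceeded 58.1 CPM, and the 5 sympathetic ganglion markers ran from 3.34 to 1071 CPM. Markers of neighbouring tissues also varied, 5 kidney genes summing to 0.485 to 581 CPM, 5 cardiac muscle genes to 6.42 to 263 CPM and 5 skeletal muscle genes to 2.75 to 153 CPM. Results that rest on Ad-FAM3A6 and Ad-FAM3A7 are therefore also given without them.

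An inhibitor, Timp2, was the most abundant transcript of the 3 families. Levels of different genes were compared as CPM per kb of the gene length in the deposited table, as means ± SD over all 13 aortas. Timp2 (ENSMUSG00000017466, chromosome 11 from 118301069 to 118355740 of GRCm38), which both inhibits MMPs and helps to activate Mmp2 at the cell surface, was the highest member at 254 ± 78.8 CPM per kb. Timp3, the inhibitor that binds to the matrix, followed at 78.1 ± 25.4, then Timp1, the soluble inhibitor induced by inflammation, at 50.7 ± 33.9, and Timp4 at 11.1 ± 2.99 CPM per kb. Timp1 had the widest relative range of the 4, its highest CPM being 10.1 times its lowest, and its level overlapped with that of Timp3. Summed over the family, TIMP transcripts came to 193 to 560.1 CPM per kb per aorta, of which Timp2 made up 58.2% to 71.4%.

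Among the proteases, Mmp3 and Mmp2 dominated. Mmp3 (ENSMUSG00000043613, chromosome 9 from 7445822 to 7455975), stromelysin, which digests proteoglycans and activates other MMPs, stood at 78.2 ± 39.1 CPM per kb, and Mmp2 (ENSMUSG00000031740, chromosome 8 from 92827291 to 92853420), gelatinase A, at 60.98 ± 28.9. These levels and that of Timp3 did not differ beyond their spread. Together Mmp2 and Mmp3 gave 41.7% to 69.3% of the summed MMP level of an aorta. Below them came Mmp23 at 21.1 ± 6.98, the membrane-type Mmp14, which activates Mmp2, at 15.1 ± 6.29, the lipid-anchored Mmp17 at 14.4 ± 6.78 and the macrophage elastase Mmp12 at 9.53 ± 8.45 CPM per kb. The gelatinase Mmp9 was far lower, at 2.63 ± 1.47, and the collagenases Mmp13 and Mmp8 stood at 1.36 ± 1.75 and 0.766 ± 0.391 CPM per kb.

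Adamts1, which cleaves versican, had the highest mean of its family over all 13 aortas, at 38.6 ± 23.4 CPM per kb. Adamts2, which removes the amino-terminal propeptide of fibrillar procollagens, stood at 28.4 ± 10.9, and Adamts10, a partner of fibrillin microfibrils, at 11.9 ± 2.97 CPM per kb. Adamts1 led Adamts2 in Ad-FAM3A aortas only, at means of 45.99 and 26.78 CPM per kb. In Ad-sham aortas the means of Adamts1 and Adamts2 were 29.96 and 30.29 CPM per kb. The aggrecanases Adamts5 and Adamts4 were lower, at 6.69 ± 2.31 and 1.86 ± 0.643. The other tested members of the family ranged from Adamts8 at 6.95 ± 3.34 down to Adamts17 at 0.0866 ± 0.0479 CPM per kb.

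**Figure D1:**
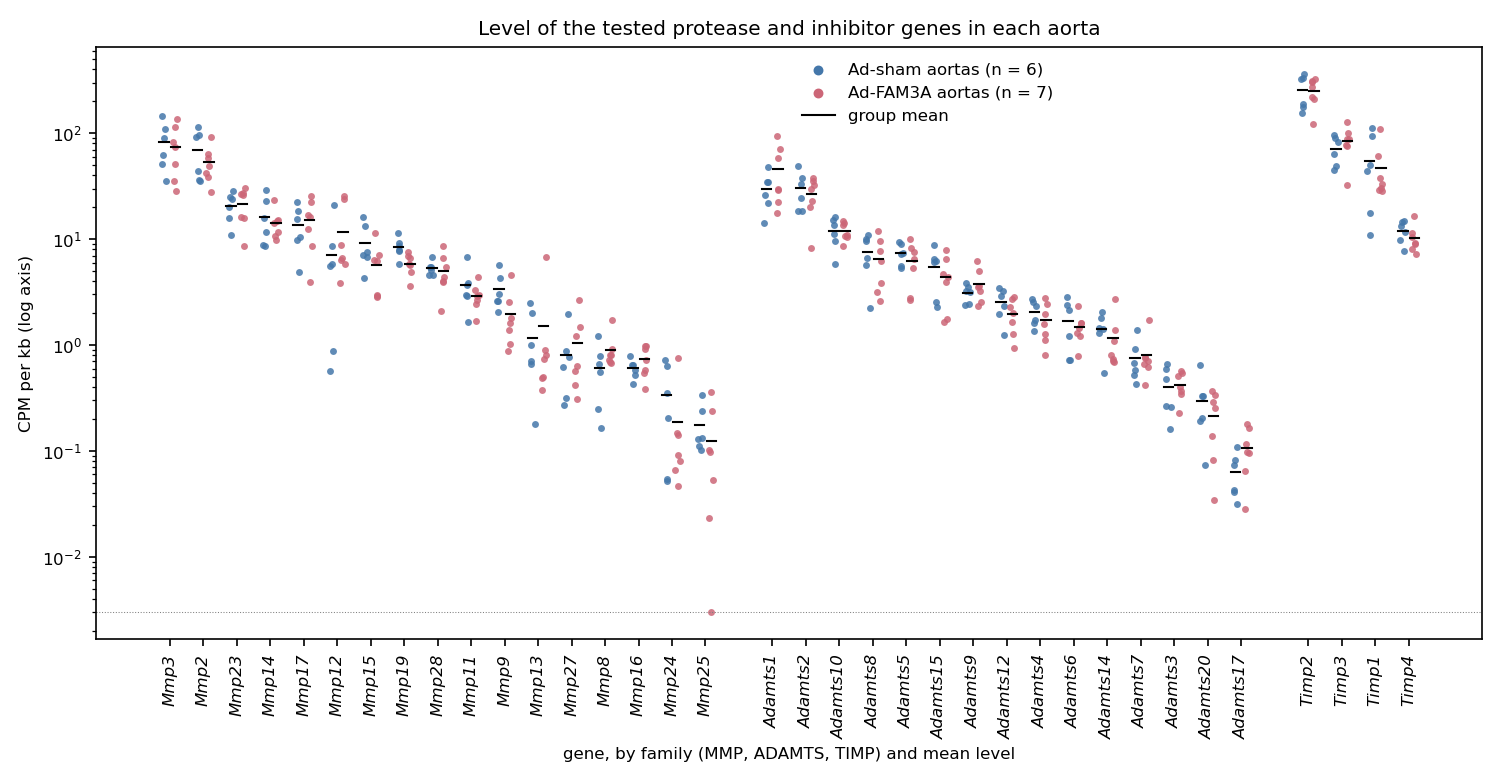
Level of each of the 36 tested genes in each aorta (points, CPM per kb on a log axis; blue, 6 Ad-sham; red, 7 Ad-FAM3A; black lines, group means), ordered by mean within the MMP, ADAMTS and TIMP families. Timp2 lies above all other genes at 254 CPM per kb on average and Adamts17 lies lowest at 0.0866; the point on the dotted line is the count of 0 for Mmp25 in Ad-FAM3A4.

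The remaining 9 members had too few counts to be compared. Mmp1b had no count in any aorta, and Mmp21, Mmp20 and Mmp10 had 1, 2 and 4 counts in all, each from 1 aorta. Mmp7, matrilysin, had 11 of its 15 counts in Ad-FAM3A6. Adamts16, Adamts19 and Adamts18 had 126, 63 and 58 counts over the 13 aortas, with at most 23, 19 and 16 in 1 of them. Adamts13, the protease of von Willebrand factor, had 53 counts, of which 33 were in Ad-FAM3A6 and 11 in Ad-FAM3A7.

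The study asked how the aortas of mice given Ad-FAM3A differ from those given Ad-sham. No MMP, ADAMTS or TIMP gene was called different between these groups, and the 36 tested genes lay on both sides of 0. To be called, a gene needed a log2 fold change beyond 1 in either direction and an adjusted p under 0.05 (edgeR, quasi-likelihood test, Benjamini-Hochberg over 15811 genes); this rule called 0 of 36 members and 0% of all genes tested. DESeq2, run as an alternative, called 9 genes, none of them a member. At an unadjusted p under 0.05 stood 1 of the 36 (2.78%), Mmp19, against 5.91% of all genes tested. Mmp19 was lower in Ad-FAM3A aortas, as were 2.93% of all genes at that p, and 2.98% were higher. No member had groups that did not overlap, which 0.0949% of all genes did. The fold change was below 0 for 23 members and above 0 for 13, with a median log2 fold change of -0.18, whereas 49.6% of all genes lay below 0 and their median was 0.00319. By family, 10 of 17 MMP, 10 of 15 ADAMTS and 3 of 4 TIMP genes were on the lower side, with Adamts10 moving above 0 when DESeq2's size factors were used. The balance moved when few aortas were left out: without Ad-FAM3A6 and Ad-FAM3A7, 16 of 35 tested members were lower, and without Ad-sham5 17 of 36. Leaving out 1 aorta in turn moved the log2 fold change by over 1.5 times, or across 0, in 32 of the 36 genes, with Mmp19, Mmp9, Mmp16 and Adamts17 as the exceptions. The adjusted p by edgeR's quasi-likelihood test ran from 0.810 to 0.992 over the 36. For 19 genes the 95% interval of the log2 fold change lay inside -1 to 1, and for the other 17 it reached 1 in size, so that for those 17 a change of that size was within the error.

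**Figure D2:**
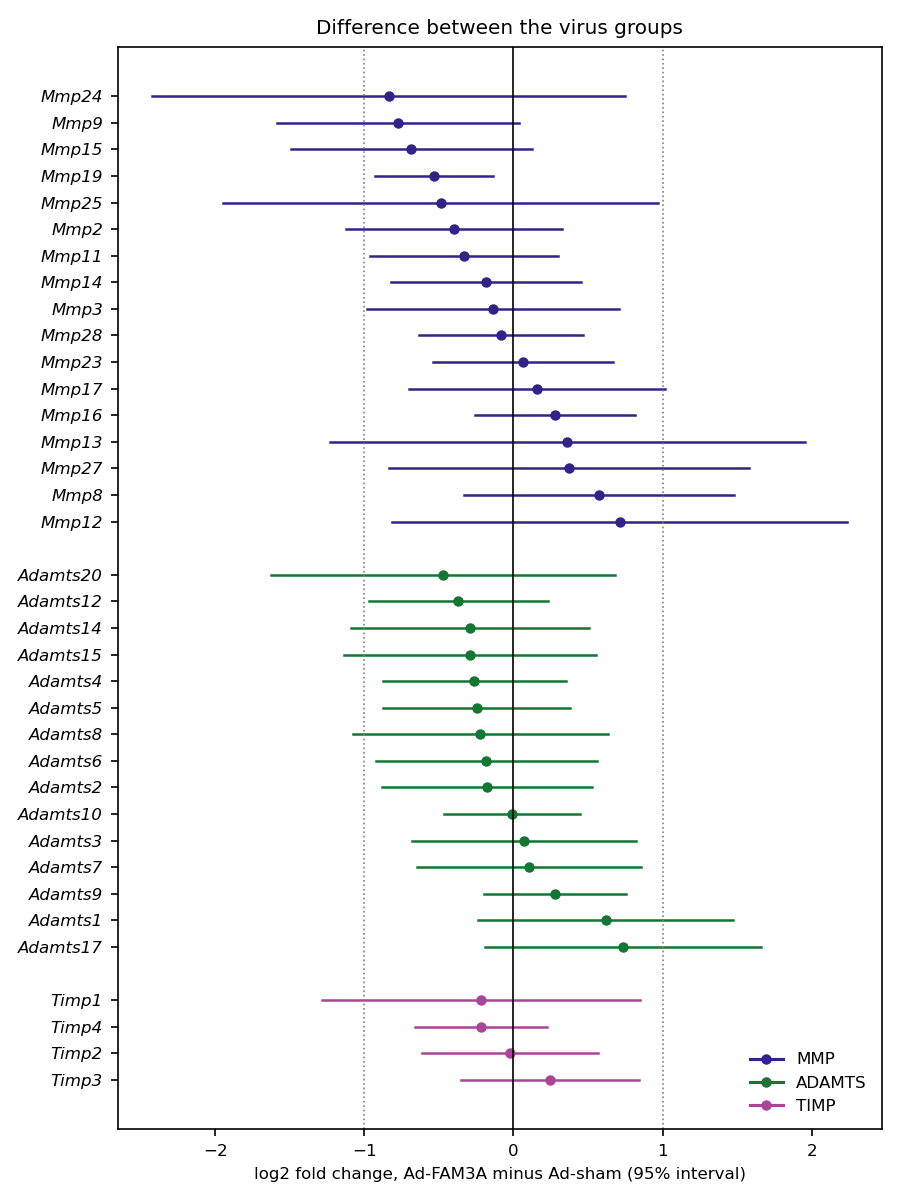
Log2 fold change of Ad-FAM3A over Ad-sham (points) with its 95% interval (lines) for the 36 tested genes, by family; dotted lines mark a log2 fold change of 1 in size. The intervals of all genes but Mmp19 (-0.93 to -0.13) include 0, and those of Mmp12 (-0.82 to 2.24), Mmp13 (-1.23 to 1.95) and Mmp24 (-2.42 to 0.75) are among the widest.

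Mmp19 (ENSMUSG00000025355, chromosome 10 from 128790910 to 128800824), a secreted MMP that cuts basement membrane proteins, was at 40.5, 27.6, 32.2, 28.04, 30.6 and 20.5 CPM in Ad-sham1 to Ad-sham6. It was at 24.5, 12.8, 26.5, 20.02, 23.2, 17.2 and 20.6 CPM in Ad-FAM3A1 to Ad-FAM3A7. All 7 Ad-FAM3A aortas were below the Ad-sham median and 5 of the 6 Ad-sham aortas were above all of them, with Ad-sham6 inside the Ad-FAM3A range. The means were 29.9 ± 6.55 CPM (n = 6) and 20.7 ± 4.66 CPM (n = 7), a log2 fold change of -0.53 (SE 0.19), with an adjusted p of 0.810 (edgeR, quasi-likelihood test, Benjamini-Hochberg) and an unadjusted one of 0.0122. The two-sided exact permutation test over 1716 splits of the aortas, run for each of the 36 genes without adjustment, gave p = 0.0128, where the smallest possible is 0.000583. Tmem198b and Gm47093 overlap Mmp19 on the other strand, and whether counting used the strand is not given in the sources used here, so reads of the overlap cannot be assigned to either. In bulk tissue, fewer cells of a type and less RNA per cell cannot be told apart, here and in all results that follow.

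Mmp9 (ENSMUSG00000017737, chromosome 2 from 164940780 to 164955850), gelatinase B, a product of neutrophils and macrophages, had the next smallest p. Its level was 9.12, 15.3, 20.3, 9.30, 10.8 and 7.26 CPM in Ad-sham1 to Ad-sham6. In Ad-FAM3A1 to Ad-FAM3A7 it was 16.3, 3.07, 4.87, 5.71, 3.61, 6.42 and 9.10 CPM. Of the Ad-FAM3A aortas, 5 lay under every Ad-sham aorta, while Ad-FAM3A1 and Ad-FAM3A7 lay within the Ad-sham range. The log2 fold change was -0.77 (SE 0.38), with p = 0.0591 by edgeR's quasi-likelihood test and p = 0.0460 by the exact permutation test, neither adjusted. The unadjusted p was under 0.05 by DESeq2, by limma-voom, with the replicate number as a block, without Ad-sham6 and without Ad-FAM3A1. Leaving out Ad-FAM3A1 gave a log2 fold change of -1.13 and leaving out Ad-sham3 one of -0.56, and it was called in neither case. Of 8 neutrophil markers, S100a8, S100a9 and Ltf had counts in all 13 aortas, while Ly6g and Mpo were each at a count of 0 in 9 of the 13. The 3 that could be tested were all lower on average in Ad-FAM3A aortas, none at an unadjusted p under 0.05. Of those with too few counts, Ly6g, Camp and Elane were lower on average too, and Ngp and Mpo higher. Ngp was at 1.18 and 1.61 CPM and Mpo at 0 and 0.185 CPM in Ad-sham and Ad-FAM3A aortas. The neutrophil list summed to 5.24 to 89.3 CPM in Ad-sham and 10.8 to 43.3 CPM in Ad-FAM3A aortas. All 5 adipocyte markers were lower on average in Ad-FAM3A aortas, Plin1 and Cidec at an unadjusted p under 0.05, and they summed to 1122 to 3182 CPM in Ad-sham and 720.3 to 1961 CPM in Ad-FAM3A aortas. The correlations of Mmp9 with these lists are given further on, and the part of these cells in the difference was not tested.

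Mmp2 ranged from 119.6 to 389 CPM in Ad-sham aortas (median 230.4) and 93.9 to 313 CPM in Ad-FAM3A aortas (median 166). The upper 3 Ad-sham aortas, at 313, 389 and 328 CPM, lay at or above the highest Ad-FAM3A aorta, while the other 3, at 148, 121 and 119.6 CPM, lay among the lowest. Its log2 fold change was -0.40 (SE 0.34), and -0.20 without Ad-sham5. Mmp14 (ENSMUSG00000000957, chromosome 14 from 54431612 to 54445364) ranged from 51.3 to 173 CPM in Ad-sham aortas (median 81.3) and 58.1 to 139 CPM in Ad-FAM3A aortas (median 83.9), with a log2 fold change of -0.18 (SE 0.30). Mmp3 ranged from 63.1 to 262 CPM in Ad-sham aortas (median 137) and 50.7 to 244 CPM in Ad-FAM3A aortas (median 134), almost the same span in both groups, with a log2 fold change of -0.14 (SE 0.39). All 8 fibroblast markers were lower on average in Ad-FAM3A aortas, none at an unadjusted p under 0.05, and summed to 4384 to 12347 CPM in Ad-sham and 2540.1 to 9052 CPM in Ad-FAM3A aortas; their part in these differences was not tested.

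Mmp12 (ENSMUSG00000049723, chromosome 9 from 7344381 to 7369499), an elastase of macrophages, varied more than any other tested member. It was at 39.998, 6.36, 4.10, 153, 41.8 and 62.6 CPM in Ad-sham1 to Ad-sham6. In Ad-FAM3A1 to Ad-FAM3A7 it was at 42.3, 187, 173, 27.98, 48.2, 45.9 and 64.3 CPM. The 2 lowest aortas, Ad-sham2 and Ad-sham3, and the third highest, Ad-sham4, carry the same label, and the highest value was 45.5 times the lowest. The log2 fold change was 0.71 (SE 0.71), moving to 1.44 without Ad-sham4 and 0.39 without Ad-FAM3A2. Of 9 macrophage markers 3 were higher on average in Ad-FAM3A aortas (Lyz2, Cd68 and C1qb) and 6 lower, none at an unadjusted p under 0.05. The list summed to 856 to 2285 CPM in Ad-sham aortas (median 1119) and 660.3 to 3727 CPM in Ad-FAM3A aortas (median 1655), and its part in the difference was not tested.

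**Figure D3:**
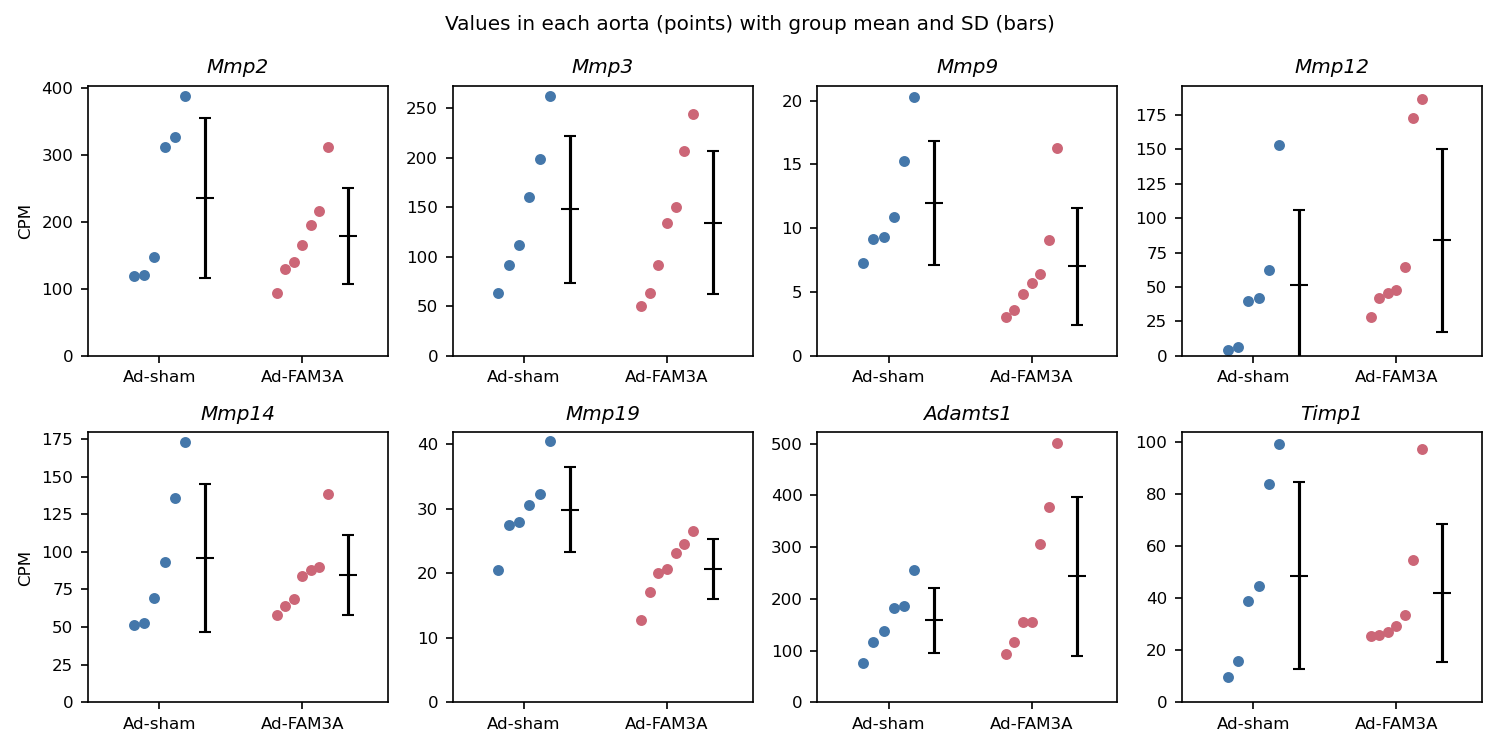
CPM of 8 genes in each aorta (points, ordered by value within a group) with the mean and SD of the group (black bars, drawn down to 0 for Mmp12 in Ad-sham), on axes that start at 0. The groups overlap in every panel; Mmp19 comes nearest to a separation, with 5 of 6 Ad-sham aortas above the highest Ad-FAM3A aorta at 26.5 CPM.

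Of the other MMPs, Mmp23 had a log2 fold change of 0.061 (SE 0.28) and Mmp17 of 0.16 (SE 0.40). Mmp15, a membrane-type MMP named here after its values were seen, ranged from 23.4 to 87.5 CPM in Ad-sham aortas (median 39.2) and 15.2 to 62.2 CPM in Ad-FAM3A aortas (median 33.6), with a log2 fold change of -0.68 (SE 0.38) and an unadjusted p of 0.0898 by edgeR's quasi-likelihood test. Mmp24 and Mmp25, which with Mmp12 had the largest SD of log2 CPM, were near the limit of detection, Mmp24 at 0.242 to 3.41 CPM in Ad-sham aortas (median 1.31) and 0.221 to 3.53 CPM in Ad-FAM3A aortas (median 0.428), and Mmp25 at 0.545 to 1.80 CPM in Ad-sham aortas and up to 1.90 CPM in Ad-FAM3A aortas, with a count of 0 in Ad-FAM3A4. Mmp24, a membrane-type MMP known from neurons, was highest in Ad-FAM3A3, Ad-sham3 and Ad-sham5, at 3.53, 3.41 and 2.95 CPM. These are the 3 aortas with the highest summed ganglion markers, 1071, 769 and 997 CPM, and also the 3 with the most Mmp15, at 62.2, 87.5 and 71.01 CPM. In kidney markers the 3 aortas were at 304, 194 and 125 CPM, below Ad-sham6 at 581 CPM and above the other 9, which did not exceed 34.1 CPM. The part of either tissue in these levels was not tested. BC029722 overlaps Mmp24 on the other strand and had 4062 counts over the 13 aortas against 259 for Mmp24, so its count is uncertain too. Without Ad-FAM3A3 the log2 fold change of Mmp24 went from -0.84 to -1.79, and without Ad-sham3 to -0.47.

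The collagenase Mmp8 was a low transcript at 0.397 to 2.97 CPM in Ad-sham aortas (median 1.48) and 1.63 to 4.16 CPM in Ad-FAM3A aortas (median 1.96). All 7 Ad-FAM3A aortas were above the Ad-sham median, and 4 of the 6 Ad-sham aortas were below every Ad-FAM3A aorta, while Ad-sham2 at 2.97 CPM lay among the highest. Its log2 fold change was 0.57 (SE 0.42), and its 95% interval of -0.33 to 1.48 included 0. Mmp16, a membrane-type MMP, had a log2 fold change of 0.28 (SE 0.25), Mmp27 of 0.37 (SE 0.56), Mmp11, which furin activates inside the cell, of -0.33 (SE 0.29), which was -0.055 without Ad-sham5, and Mmp28, epilysin, of -0.083 (SE 0.26). Mmp11 lies partly over Chchd10 and Mmp28 over 1700020L24Rik, each on the other strand, so their counts are uncertain in the same way.

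In the ADAMTS family Adamts1 (ENSMUSG00000022893, chromosome 16 from 85793827 to 85803113) had one of the larger differences. It was at 138, 182, 116, 255, 76.1 and 185 CPM in Ad-sham1 to Ad-sham6. In Ad-FAM3A1 to Ad-FAM3A7 it was at 306, 156, 156, 500.1, 378, 92.9 and 118 CPM. The top 3 aortas are Ad-FAM3A4, Ad-FAM3A5 and Ad-FAM3A1, above every Ad-sham aorta, but the group medians were alike at 156 and 159.9 CPM. Its log2 fold change of 0.62 (SE 0.40) became 0.35 when Ad-FAM3A4 was left out. Without Ad-FAM3A6 and Ad-FAM3A7 it passed an unadjusted p of 0.05 but was not called. All 9 smooth muscle markers were also higher on average in Ad-FAM3A aortas, 1 of them (Tagln) at an unadjusted p under 0.05, and in the Ad-FAM3A4 library they reached the highest sum, 19125 CPM; their part in this difference was not tested beyond the correlation below.

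Adamts4 ranged from 6.55 to 12.96 CPM in Ad-sham aortas (median 9.74) and 3.91 to 13.3 CPM in Ad-FAM3A aortas (median 7.65), and Adamts5 from 57.3 to 101 CPM in Ad-sham aortas (median 79.4) and 28.4 to 108 CPM in Ad-FAM3A aortas (median 70.4). For both aggrecanases every Ad-sham aorta lay within the Ad-FAM3A range, with log2 fold changes of -0.26 (SE 0.29) and -0.25 (SE 0.29). Because it is not given whether counting used the strand, the count of Adamts4 is uncertain. Adamts2 had a log2 fold change of -0.18 (SE 0.33), Adamts10 of -0.010 (SE 0.21) and Adamts9, which like Adamts1 cleaves versican, of 0.28 (SE 0.22). Adamts10 and Adamts9 were among the 3 steadiest members, Adamts10 ranging from 31.9 to 88.8 CPM in Ad-sham aortas (median 67.96) and 46.96 to 80.4 CPM in Ad-FAM3A aortas (median 59.5), and Adamts9 from 35.7 to 58.6 CPM in Ad-sham aortas (median 48.3) and 35.03 to 93.1 CPM in Ad-FAM3A aortas (median 52.9). The largest fold change of the family was that of Adamts17, a gene near the limit of detection at 0.242 to 0.841 and 0.221 to 1.41 CPM in the groups, with a log2 fold change of 0.73 (SE 0.43) and a 95% interval of -0.19 to 1.66; it is named after its values were seen.

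The remaining ADAMTS genes were on both sides of 0. Adamts3 and Adamts14, which like Adamts2 trim procollagens, stood at 2.19 ± 1.09 and 7.39 ± 2.66 CPM in Ad-sham and 2.30 ± 0.668 and 6.04 ± 3.85 CPM in Ad-FAM3A aortas, with log2 fold changes of 0.071 (SE 0.35) and -0.29 (SE 0.37). The versican-cleaving Adamts15 and Adamts20 had log2 fold changes of -0.29 (SE 0.39) and -0.47 (SE 0.54), the first at 55.9 ± 26.1 and 45.7 ± 23.9 CPM and the other at 2.68 ± 1.79 and 1.93 ± 1.17 CPM in the groups. Without Ad-sham2 the log2 fold change of Adamts15 was -0.10, and without Ad-sham5 that of Adamts20 was -0.075. Adamts7 and Adamts12, which cut cartilage oligomeric matrix protein, had 0.10 (SE 0.35) and -0.37 (SE 0.28), and Adamts6 and Adamts8 had -0.18 (SE 0.35) and -0.22 (SE 0.40). In each of these 8 genes the groups overlapped. Adamts7 overlaps Tbc1d2b on the other strand, which makes its count uncertain.

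No TIMP gene passed the test. Timp2 ranged from 602 to 1413 CPM in Ad-sham aortas (median 1001) and 473 to 1268 CPM in Ad-FAM3A aortas (median 1065), with a log2 fold change of -0.023 (SE 0.27). Timp3 (ENSMUSG00000020044, chromosome 10 from 86300372 to 86349506) ranged from 366 to 776 CPM in Ad-sham aortas (median 596) and 264 to 1029 CPM in Ad-FAM3A aortas (median 711), with a log2 fold change of 0.25 (SE 0.28). Ad-FAM3A6 had the lowest value of both genes among the 13 aortas, and without it the log2 fold change of Timp3 was 0.39. Timp1 (ENSMUSG00000001131, chromosome X from 20870166 to 20874735) ranged from 9.78 to 99.2 CPM in Ad-sham aortas (median 41.9) and 25.5 to 97.4 CPM in Ad-FAM3A aortas (median 29.4), with a log2 fold change of -0.22 (SE 0.50) and the widest 95% interval of the 4, -1.28 to 0.85. Its extremes, 9.78 CPM in Ad-sham3 and 99.2 CPM in Ad-sham5, were both Ad-sham aortas. Timp4 was the steadiest of all 36 genes, from 45.2 to 86.96 CPM in Ad-sham aortas (median 73.7) and 42.7 to 98.1 CPM in Ad-FAM3A aortas (median 53.6), with a log2 fold change of -0.22 (SE 0.21). Each of Timp1, Timp3 and Timp4 lies inside a synapsin gene on the other strand (Syn1, Syn3 and Syn2), so some of their reads may belong to that gene.

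Summed per aorta, the 22 MMP genes gave 243 ± 93.8 CPM per kb in Ad-sham and 217 ± 75.3 in Ad-FAM3A aortas. The ADAMTS sum was 105 ± 25.6 and 114 ± 50.1 CPM per kb, and the TIMP sum 394 ± 143 and 394 ± 109.6 CPM per kb. Each difference of means was smaller than the SD of either group. Without Ad-FAM3A6 and Ad-FAM3A7, a choice made for these sums after seeing the data, the 5 remaining Ad-FAM3A aortas had an MMP sum of 248 ± 60.999, above the Ad-sham mean rather than below it, an ADAMTS sum of 132 ± 45.7 and a TIMP sum of 448 ± 54.96 CPM per kb. Ad-FAM3A6 had the lowest of all 3 sums, at 105, 50.04 and 193 CPM per kb, while the highest MMP sum was in Ad-sham5 and the highest ADAMTS sum in Ad-FAM3A4. The ratio of the TIMP sum to the MMP sum was steadier than either, 1.39 to 2.02 over the 13 aortas. It was 1.72, 1.48, 1.66, 1.77, 1.39 and 1.77 in Ad-sham1 to Ad-sham6, and 1.90, 2.02, 1.48, 1.99, 1.87, 1.84 and 1.86 in Ad-FAM3A1 to Ad-FAM3A7. All Ad-FAM3A aortas but Ad-FAM3A3 were above the highest Ad-sham aorta, and the means were 1.63 ± 0.158 and 1.85 ± 0.174, the second being 1.85 ± 0.214 without Ad-FAM3A6 and Ad-FAM3A7. This ratio was not planned and depends on weighting by gene length. In CPM the TIMP and MMP sums were 2135 and 871 in Ad-sham6, 1618 and 737 in Ad-FAM3A2 and 818 and 377 in Ad-FAM3A6. By the ratio in CPM, Ad-FAM3A2 and Ad-FAM3A6 were below Ad-sham6, the highest Ad-sham aorta, as was Ad-FAM3A3. The other Ad-FAM3A aortas were above it. The ratio and the sums over members are a description and were given no test.

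Genes that act around these proteases, from lists of activators, other inhibitors, other matrix proteases, ADAMTS-like proteins and substrates, held no called gene either; all were tested but Plg, Klkb1 and A2m. Of the activators, 2 of 6 tested genes were higher and 4 lower, and Plaur, the urokinase receptor, was at 9.31 ± 2.41 CPM in Ad-sham aortas and 12.5 ± 2.34 CPM in Ad-FAM3A aortas, a log2 fold change of 0.42 (SE 0.20) at an unadjusted p under 0.05. Among other inhibitors and clearance receptors, 5 of 7 were higher and none passed an unadjusted p of 0.05. Of 16 other matrix proteases 9 were higher and 7 lower, and Adam12, a membrane-bound relative of the ADAMTS proteases, was at 56.7 ± 19.2 CPM in Ad-sham aortas and 33.4 ± 8.58 CPM in Ad-FAM3A aortas, a log2 fold change of -0.76 (SE 0.22) at an unadjusted p under 0.05. Plaur and Adam12 were 1 of 6 and 1 of 16 tested genes, against 5.91% of all genes tested at an unadjusted p under 0.05. Their adjusted p was 0.810 (edgeR, quasi-likelihood test, Benjamini-Hochberg). The 6 ADAMTS-like genes and 10 substrates had median log2 fold changes of -0.047 and -0.035, with none at an unadjusted p under 0.05. Versican (Vcan) had a log2 fold change of 0.43 (SE 0.32), elastin (Eln) of 0.30 (SE 0.37) and Col3a1 of -0.43 (SE 0.35).

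The spread between aortas varied widely among these genes. The median SD of log2 CPM over the 13 aortas was 0.667 for the 36 members and 0.470 for all genes tested. Of the 36, 31 lay above that all-gene median and 5 below it (Timp4, Adamts10, Adamts9, Mmp16 and Mmp19), and no test of the difference was made. Ad-FAM3A6 held the lowest value of 11 of the 36 genes and Ad-FAM3A2 that of 8, whereas Ad-sham5 held the highest value of 9 and Ad-FAM3A4 that of 7.

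Part of this variation was shared. For 24 pairs of genes, or of a gene and the mean log2 CPM of a marker list, Pearson's r and Spearman's rho were computed over the 13 aortas, with permutation tests of 100000 resamples and Benjamini-Hochberg adjustment over the 24 pairs; the points share libraries and scaling, and 15 pairs had an adjusted p under 0.05 by r and 12 by rho. Timp2 and Timp3 varied together, with r = 0.910 (rho = 0.868), 0.949 in Ad-sham and 0.945 in Ad-FAM3A aortas, and 0.802 without the 2 aortas farthest from the median of Timp2 (permutation, adjusted p = 0.000120 over all aortas). Mmp2 followed both its activator Mmp14, with r = 0.853 (rho = 0.802) and adjusted p = 0.00106 by permutation, and Timp2, with r = 0.833 (rho = 0.841) and adjusted p = 0.00192 by permutation. Without the 2 farthest aortas these were 0.751 and 0.825. Timp1 and Mmp9, an inhibitor and a protease that can form a complex, had r = -0.397 (rho = -0.220), with a permutation adjusted p of 0.241. The aggrecanase pair Adamts4 and Adamts5 had r = 0.675 (rho = 0.412), and Adamts1 with Adamts4 r = -0.0199 (rho = -0.132). The relation of Adamts1 and Adamts9, r = 0.697 (rho = 0.555), rested on Ad-FAM3A4 and Ad-FAM3A5, without which r was 0.276. Of the 15 pairs, 9 passed without the 2 farthest aortas. In the other 6 the call was lost with 11 aortas and r was lower but positive. Without those aortas r was 0.626 for Timp2 with Mmp14 (0.708 over all 13), 0.353 for Timp3 with Adamts5 (0.620) and 0.554 for Adamts4 with Adamts5. It was 0.460 for the fibroblast markers with Mmp14 (0.623) and 0.643 for the smooth muscle markers with Timp3, and Adamts1 with Adamts9 was the sixth.

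The marker lists were not independent of each other, with r of 0.606 between the smooth muscle and endothelial, 0.603 between the fibroblast and endothelial and 0.482 between the smooth muscle and fibroblast scores, so following one list is not separate from following another. Against the marker lists, Mmp3, Mmp2 and Timp2 followed the fibroblast genes, with r = 0.922 (rho = 0.918), 0.878 (rho = 0.923) and 0.876 (rho = 0.885). All 3 held without the 2 farthest aortas, at 0.885, 0.823 and 0.794. Timp3 and Adamts1 followed the smooth muscle genes, with r = 0.846 (rho = 0.775) and 0.753 (rho = 0.813), and 0.643 and 0.820 without Ad-FAM3A6 and Ad-sham1. These 2 aortas, the lowest in smooth muscle markers, had the highest cardiac muscle sums, 177 and 263 CPM, where no other aorta exceeded 72.6 CPM, and the part of that tissue was not tested. For Adamts1 the r with smooth muscle genes was 0.907 in Ad-FAM3A and 0.319 in Ad-sham aortas, and the difference of these was not tested. Mmp12 followed the macrophage genes, with r = 0.721 (rho = 0.780), 0.828 in Ad-sham and 0.837 in Ad-FAM3A aortas. Mmp9 had r = -0.172 (rho = -0.187) with the macrophage and 0.224 (rho = 0.0824) with the neutrophil markers. Its largest r with a list was that with the adipocyte markers, 0.618 (rho = 0.582), at 0.512 in Ad-sham and 0.663 in Ad-FAM3A aortas, computed among the 180 described next. None of these 3 passed the permutation test with adjustment. Mmp8, the neutrophil collagenase, had r = 0.641 (rho = 0.582) with the neutrophil markers, passing by r and not by rho. That r was 0.839 in Ad-sham and -0.139 in Ad-FAM3A aortas, and the difference of these was not tested. Only 3 of the 8 neutrophil markers had enough counts to be tested. Timp4, known from fat and heart, had r = 0.117 (rho = 0.165) with the adipocyte markers.

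**Figure D4:**
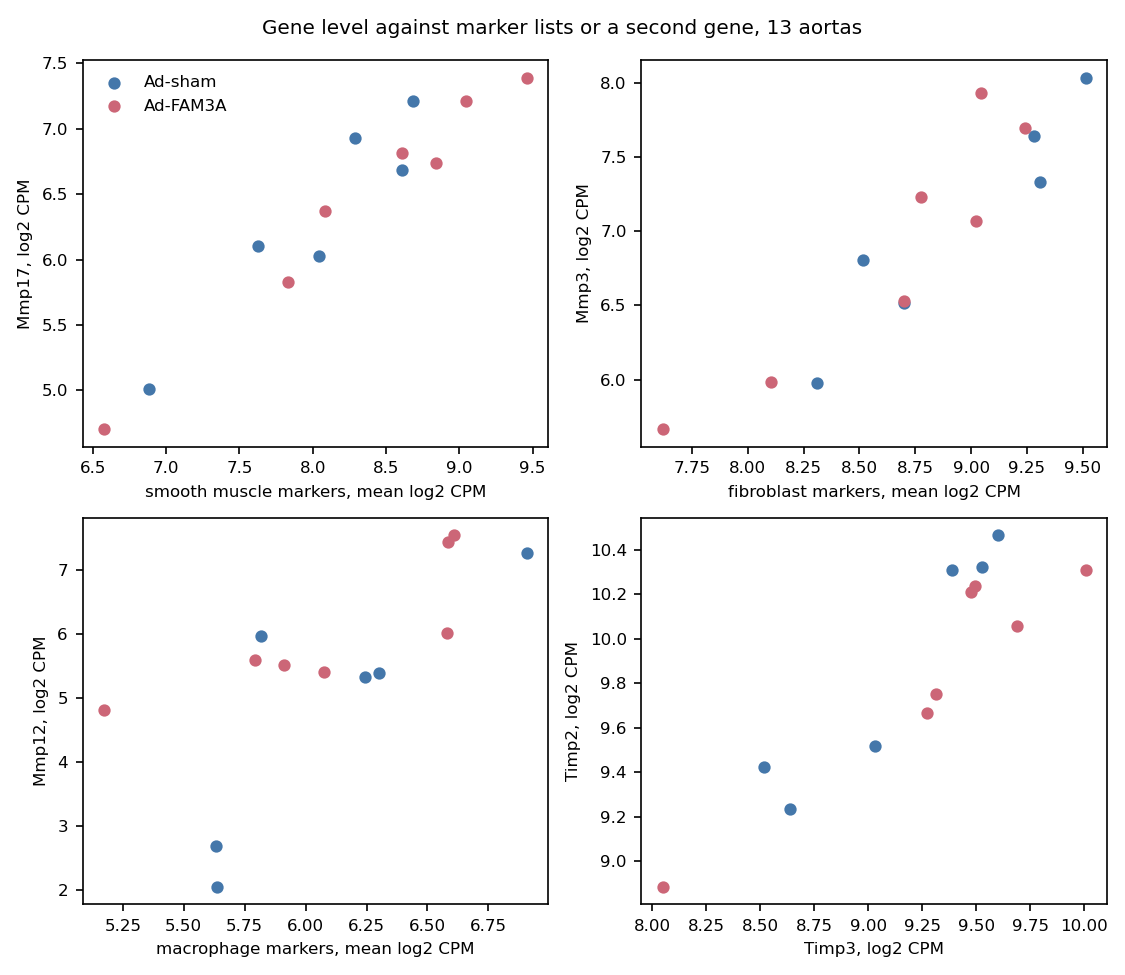
Log2 CPM of Mmp17, Mmp3 and Mmp12 against the mean log2 CPM of the smooth muscle, fibroblast and macrophage markers, and of Timp2 against Timp3; each point is an aorta (blue, 6 Ad-sham; red, 7 Ad-FAM3A). Points of both colours rise from left to right in each panel, with r over all 13 aortas of 0.960, 0.922, 0.721 and 0.910; in the Mmp12 panel Ad-sham2 and Ad-sham3 lie lowest, below Ad-FAM3A aortas of like macrophage level.

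All 36 genes were then set against 5 of the lists, a step chosen after values had been seen, which gave 180 correlations and 21 with an adjusted p under 0.05 by permutation of r, all of them positive. Every r that passed was at least 0.721, a value that 8.15% of all 15811 tested genes reached with the smooth muscle list, 2.95% with the fibroblast, 1.06% with the macrophage, 1.3% with the endothelial and 4.16% with the adipocyte list. Of the 36 members 10, 7, 2, 2 and 0 reached it, and no test of the difference was made. The closest were with smooth muscle genes: Mmp17 at r = 0.960 (rho = 0.918) and Mmp23 at r = 0.939 (rho = 0.863). Mmp17 and Mmp23 kept r of 0.887 and 0.830 without the 2 farthest aortas, and Mmp17 had 0.941 in Ad-sham and 0.988 in Ad-FAM3A aortas. Timp3, Adamts10, Adamts8, Mmp28, Adamts1, Adamts2, Adamts9 and Timp2 made up the rest of the 10 that passed with the smooth muscle list. With the fibroblast list 7 passed: Adamts2 at r = 0.923 (rho = 0.879), Mmp3, Mmp2, Timp2, Adamts5 at 0.870 (rho = 0.802), Timp3 and Adamts12. With the macrophage list Mmp27 at r = 0.804 (rho = 0.857) and Mmp12 passed, with the endothelial list Timp2 and Timp3, and with the adipocyte list none. All 21 had a positive r within each group, and 15 passed also by rho. With the 2 farthest aortas left out and adjustment over all 180, 2 passed, those of Mmp17 with the smooth muscle and of Mmp3 with the fibroblast list. Mmp19 and Mmp9, the genes with the smallest p between the groups, passed with none of the 5 lists. Ad-FAM3A6 had the lowest sums of both smooth muscle and fibroblast markers, 2379 and 2540.1 CPM, beside the lowest MMP, ADAMTS and TIMP sums.

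**Figure D5:**
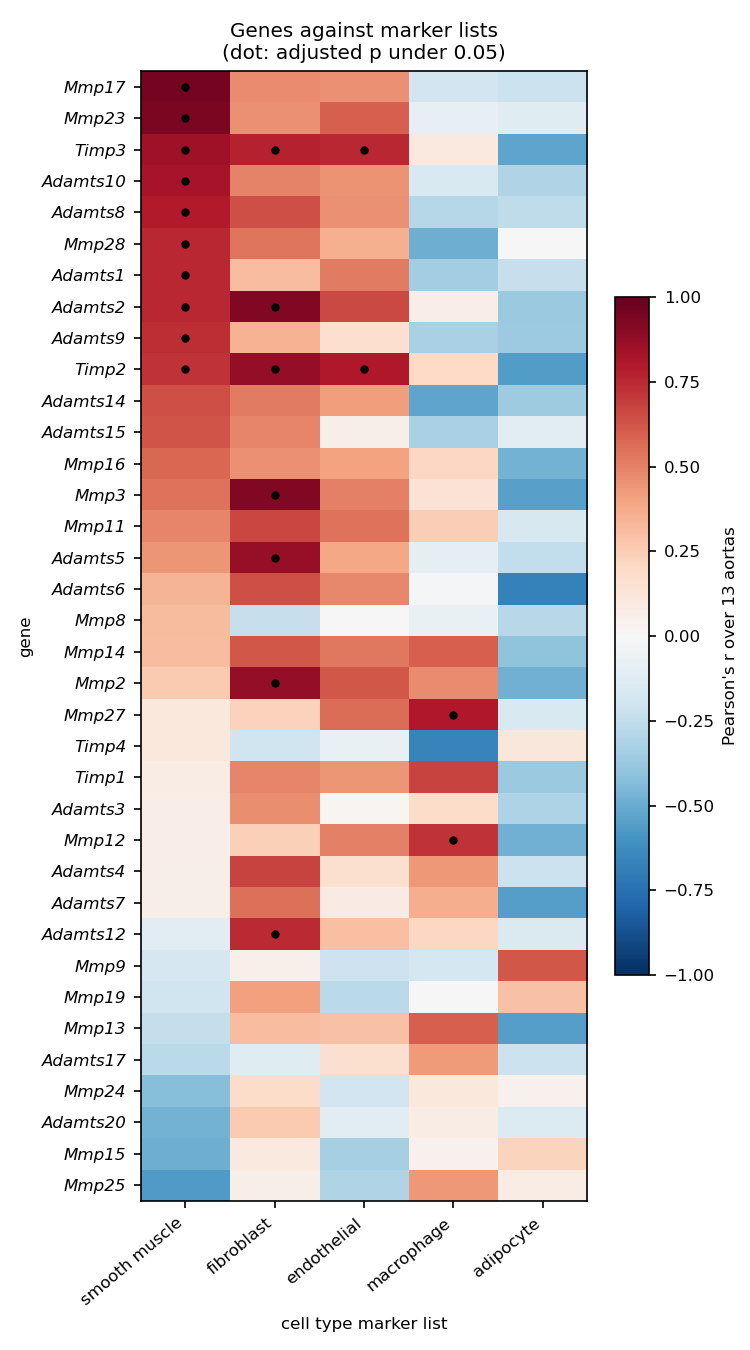
Pearson's r over 13 aortas (colour) between the log2 CPM of each of the 36 genes and the mean log2 CPM of 5 cell type marker lists, ordered by r with smooth muscle; dots mark an adjusted p under 0.05 over all 180 correlations. Dots are in the smooth muscle column for 10 genes, the fibroblast column for 7, the endothelial and macrophage columns for 2 each, and the adipocyte column for none.

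Of the 22 MMP genes, 9 lie side by side on chromosome 9 from 7272514 to 7699585, and 5 of these were tested (Mmp3, Mmp12, Mmp13, Mmp8 and Mmp27). RefSeq promoter windows of GRCm38.p6, from 250 bases before to 50 bases after a start, were matched for 31 of the 45 members, and searched on both strands for 3 motifs. The AP-1 motif, spelled TGANTCA, was in windows of 7 of the 9 cluster genes and 0 of the 22 other matched members, against 7.81% of all 32851 windows. The letters TATAAA, those of a TATA box, were in windows of 8 of the 9 and 2 of the 22, against 13.6% of all windows. The only match of Mmp8 was on the other strand, at -3 to 3 around its start. The GC box, spelled GGGCGG, was in windows of 18 of the 31 matched members, against 35.7% of all windows. Windows of 4 cluster genes are printed because these carry both motifs while their levels differ widely, with that of Timp3, from outside the cluster, for contrast. Mmp12 is shown at a start inside the gene as the deposited table bounds it. Capitals mark matches to the AP-1 motif and to TATAAA in the MMP genes and the GC box, read on the other strand, in Timp3. Counted from the RefSeq start, the TATAAA match lies at -29 to -24 in Mmp10, -16 to -11 in Mmp13, -7 to -2 in Mmp3 and 5 to 10 in Mmp12, where it is past the start used; a match of letters is a description and not a shown TATA box.
Mmp3, chr9:7445572-7445871, plus strand: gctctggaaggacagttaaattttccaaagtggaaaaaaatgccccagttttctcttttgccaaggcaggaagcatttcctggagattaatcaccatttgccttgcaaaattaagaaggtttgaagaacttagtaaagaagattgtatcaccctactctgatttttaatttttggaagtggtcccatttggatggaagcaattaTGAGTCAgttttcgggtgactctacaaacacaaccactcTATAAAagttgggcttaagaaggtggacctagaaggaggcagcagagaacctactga
Mmp10, chr9:7502092-7502391, plus strand: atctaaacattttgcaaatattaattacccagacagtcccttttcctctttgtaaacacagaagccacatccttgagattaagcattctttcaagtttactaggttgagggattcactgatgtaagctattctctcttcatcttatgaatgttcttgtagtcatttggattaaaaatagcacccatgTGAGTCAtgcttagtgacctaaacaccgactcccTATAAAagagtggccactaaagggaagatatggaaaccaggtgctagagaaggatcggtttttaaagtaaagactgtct
Mmp12, chr9:7347124-7347423, plus strand: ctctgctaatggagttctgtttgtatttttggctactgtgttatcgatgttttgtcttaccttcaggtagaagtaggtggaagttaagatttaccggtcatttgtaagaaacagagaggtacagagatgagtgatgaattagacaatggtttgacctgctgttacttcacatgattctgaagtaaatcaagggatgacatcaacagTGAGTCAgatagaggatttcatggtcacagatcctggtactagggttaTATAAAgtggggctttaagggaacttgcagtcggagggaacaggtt
Mmp13, chr9:7272264-7272563, plus strand: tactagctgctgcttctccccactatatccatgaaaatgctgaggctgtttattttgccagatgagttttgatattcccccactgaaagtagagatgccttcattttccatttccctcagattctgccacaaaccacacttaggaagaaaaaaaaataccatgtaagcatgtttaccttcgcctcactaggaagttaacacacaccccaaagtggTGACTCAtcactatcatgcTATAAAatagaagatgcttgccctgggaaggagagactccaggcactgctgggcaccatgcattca
Timp3, chr10:86300162-86300461, plus strand: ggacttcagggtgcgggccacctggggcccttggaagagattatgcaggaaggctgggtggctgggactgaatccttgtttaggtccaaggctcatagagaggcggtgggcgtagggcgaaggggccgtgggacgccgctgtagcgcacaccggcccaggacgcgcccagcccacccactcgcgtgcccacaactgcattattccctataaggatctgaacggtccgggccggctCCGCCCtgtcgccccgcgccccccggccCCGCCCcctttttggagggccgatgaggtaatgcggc

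With the same 2 motifs near their starts, Mmp3 stood at 78.2 ± 39.1 CPM per kb, Mmp12 at 9.53 ± 8.45 and Mmp13 at 1.36 ± 1.75, while Mmp10, a second stromelysin beside Mmp3, had 4 counts in all, from Ad-FAM3A3. Mmp13 was at 1.79, 0.485, 1.89, 6.61, 2.66 and 5.40 CPM in Ad-sham1 to Ad-sham6. In Ad-FAM3A1 to Ad-FAM3A7 it was at 1.32, 1.97, 18.1, 1.004, 1.32, 2.38 and 2.14 CPM, so Ad-FAM3A3 alone stood out. The log2 fold change of Mmp13 was 0.36 (SE 0.74) with Ad-FAM3A3 and -0.86 without it. A match to these letters is a description of the window and does not show that a factor binds there.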

How the data were processed

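Aortic RNA of 13 mice (6 Ad-sham, 7 Ad-FAM3A by their labels) was analysed. The authors aligned reads to GRCm38 with Hisat2, counted them per gene with FeatureCounts and deposited raw counts; the annotation release, the strand setting and the handling of multiply mapped reads are not given in the sources used here. The deposited FPKM columns, a mean per group by the authors, were not used in any test. No column was left unmapped to a sample (0). Libraries differed from each other by a chi-square per degree of freedom of at least 41.9, so none was a duplicate. Nothing states that a library number pairs mice across groups.

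Counts were scaled by TMM, filtered by filterByExpr and compared with edgeR 4.0.16 (quasi-likelihood test, Benjamini-Hochberg adjustment over 15811 genes) in R 4.3.3; standard errors were taken from the fold change and the F statistic. CPM are TMM-scaled, as mean ± SD, and log2 CPM uses a prior count of 0.5. Exact permutation tests used all 1716 splits. Correlations were computed in Python 3.11.15 with scipy 1.17.1. Tests were tried on simulated counts. Alternatives were other scalings, filters and tests (DESeq2 1.42.0, limma-voom 3.58.1, edgeR's exact test), the replicate block, and leaving out aortas. Named genes were those at an unadjusted p under 0.05, the 3 highest per kb of each family, 12 genes known in vessel walls, those whose groups do not overlap, and the 3 with the largest and 3 with the smallest SD; all other members were named after their values were seen. Members and lists were chosen with earlier results of these data known.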

Additional observations from a re-analysis of the deposited data

Results flagged for a closer look

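Among 72 groups of values (36 genes in each group of aortas), 7 held an aorta far from the others by Dixon's criterion, where chance gives about 1 in 20, or 3.6. Ad-FAM3A3 was high in 4 of them, with log2 CPM set against the other 6 Ad-FAM3A aortas. Mmp13 was at 4.18 on the log2 scale (18.1 CPM) against 0.049 to 1.27 (1.004 to 2.38 CPM), and Mmp24 at 1.83 on the log2 scale (3.53 CPM) against -1.99 to -0.46 (0.221 to 0.696 CPM). Adamts7 was at 3.44 on the log2 scale (10.8 CPM) against 1.42 to 2.29 (2.64 to 4.86 CPM), and Mmp8 at 2.07 on the log2 scale (4.16 CPM) against 0.73 to 1.16 (1.63 to 2.21 CPM). Among the Ad-FAM3A aortas, Ad-FAM3A3 also had the highest summed ganglion markers, 1071 CPM against at most 311 CPM, and the highest kidney markers, 304 CPM against at most 34.1 CPM. The part of either tissue in these values was not tested. Ad-FAM3A6 was low in Timp3, at 8.05 on the log2 scale (264 CPM) against 9.27 to 10.01 (619 to 1029 CPM), and in Adamts2, at 6.25 on the log2 scale (76.2 CPM) against 7.56 to 8.47 (188 to 356 CPM); it had the lowest summed smooth muscle and fibroblast markers and the highest lymphoid markers, whose part was not tested. Ad-sham1 was low in Adamts14, at 1.52 on the log2 scale (2.84 CPM) against 2.75 to 3.41 (6.69 to 10.6 CPM) in the other 5 Ad-sham aortas.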

How the results depend on the processing

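No member was called under any of the fits across all genes. DESeq2 called 9 of all genes (8 higher, 1 lower), the edgeR and limma fits 0. Mmp19 stayed at an unadjusted p under 0.05 in every fit. The count of members at that p was 1 in the main comparison, 2 by DESeq2 and by limma-voom (with Mmp9), 2 without Ad-FAM3A6 and Ad-FAM3A7 (with Adamts1), 3 with the replicate block (with Mmp9 and Mmp15), and 1 to 3 when each aorta was left out in turn (2 without Ad-sham2, Ad-sham4, Ad-sham6, Ad-FAM3A1 or Ad-FAM3A5, 3 without Ad-FAM3A3); 0 had groups that do not overlap. Deviations of same-numbered aortas from their group means correlated at -0.344 to 0.412. This cannot decide whether the numbers pair mice, as aortas of different numbers were not compared. The replicate block moved the count of all genes at that p from 934 to 620 and called none.

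Of 819 fold changes recomputed, 51 changed sign, in 15 of the 36 genes; 21 genes kept their sign. With all 13 aortas kept, only Timp2 (0.0067 by limma-voom, 0.040 with the replicate block), Timp1 (0.020 by limma-voom), Mmp13 (-0.044 and -0.14) and Adamts10 (0.0096 by DESeq2 size factors, 0.0067 without a filter, 0.0085 by DESeq2, 0.048 by limma-voom, 0.061 with the block) turned. Without Ad-FAM3A6 and Ad-FAM3A7, Timp2 (0.16), Adamts2 (0.048), Mmp3 (0.11), Adamts10 (0.10), Adamts8 (0.045) and Mmp28 (0.10) turned, and 16 members rather than 23 were lower. Leaving out 1 aorta gave log2 fold changes of -0.13 to 0.10 for Timp2, -0.55 to 0.11 for Timp1, -0.29 to 0.015 for Adamts2, -0.091 to 0.27 for Adamts3, -0.34 to 0.035 for Adamts6, -0.17 to 0.36 for Adamts7, -0.15 to 0.10 for Adamts10, -0.33 to 0.10 for Mmp3, -0.86 to 0.72 for Mmp13, -0.32 to 0.073 for Mmp14, -0.022 to 0.36 for Mmp17, -0.067 to 0.20 for Mmp23, -0.053 to 0.86 for Mmp27 and -0.26 to 0.048 for Mmp28. The number of members on the lower side ran from 17 (without Ad-sham5) to 25.

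Of the 24 pairs, 9 passed without the 2 farthest aortas, 1 in Ad-sham and 5 in Ad-FAM3A aortas alone, where fewer aortas enter. The sign turned for Mmp8 with Mmp9 in Ad-sham (0.494), and in Ad-FAM3A aortas for Adamts1 with Adamts4 (0.143), Mmp8 with neutrophil markers (-0.139) and Timp4 with adipocyte markers (-0.376). Without the 2 farthest aortas it turned for Timp3 with Adamts4 (-0.0957), neutrophil markers with Mmp9 (-0.0487) and adipocyte markers with Timp4 (-0.159). The causes were not tested.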

Other observations

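Adamts13, under the limit for testing, was seen mainly in Ad-FAM3A6, at 2.02 CPM, and Ad-FAM3A7, at 0.638 CPM. In the other 11 aortas it did not exceed 0.193 CPM. The same 2 aortas had the highest lymphoid markers, 552 and 192 CPM in sum. Mmp7 had counts in Ad-FAM3A6 (0.673 CPM) and Ad-FAM3A3 (0.282 CPM) and none in the other 11 aortas. Mmp27, in the chromosome 9 cluster, was highest in Ad-FAM3A2 (5.90 CPM) and Ad-sham4 (4.36 CPM), which with Ad-FAM3A3 were the 3 aortas highest in Mmp12 (187, 153 and 173 CPM).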
